A study of Mus musculus with 20 samples.

Results

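Bone morphogenetic protein (BMP) signalling was followed through 9 of the 24795 genes of the deposited table, chosen by name: the ligands Bmp2, Bmp4 and Bmp7, the antagonists Grem1 and Bambi, the inhibitory Smad7, and the targets Id1, Id2 and Id3. They were read in 20 RNA sequencing libraries of mouse intestine: 6 of the Apc Min genotype with DM-aKG treatment, 7 of the same genotype with control treatment, and 7 of WT, whose titles name no treatment. Both Apc Min groups carry the Min allele, a nonsense mutation of the Wnt pathway inhibitor Apc, and such mice grow intestinal adenomas. DM-aKG, the dimethyl ester of the metabolite alpha-ketoglutarate, enters cells, and the series title names Wnt signalling and differentiation as the subject. Titles call the samples tissue while other fields call them organoids in vitro, with organoid medium and low-glutamine medium in the protocols. The labels state neither age, strain nor dose. Nothing in them ties a library to one animal, so the spread behind each p-value is that between libraries and may be technical.

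BMP ligands bind pairs of serine/threonine kinase receptors, which phosphorylate Smad1, Smad5 and Smad9. With Smad4 these enter the nucleus and switch on targets such as the Id genes, whose products hold basic helix-loop-helix transcription factors away from DNA, and the inhibitory Smad6 and Smad7, which feed back on the receptors. In the gut, ligands are made by mesenchyme near the villus and the crypt top and also by epithelium, while antagonists such as Grem1 come from muscle and fibroblasts around the crypt base. BMP signalling restrains stem cell renewal and favours differentiation, and inherited loss of a BMP receptor or of Smad4 gives juvenile polyps in people.

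All 9 genes are protein coding in GENCODE M21 (mm10). The ligands lie on chromosome 2 (Bmp2, 133552159 to 133562885, forward strand, and Bmp7, 172868012 to 172940321, reverse strand) and on chromosome 14 (Bmp4, 46383520 to 46390669, reverse strand). Grem1 lies on chromosome 2 (113746164 to 113758646, reverse strand), as does Id1 (152736251 to 152737410, forward strand). Id2 lies on chromosome 12 (25093799 to 25097140, reverse strand) and Id3 on chromosome 4 (136143497 to 136145755, forward strand). Positions of Bambi and Smad7 are given with their values. Bmp4 is overlapped on the other strand by Gm15217, which was at 0 RPKM in every library, and by Gm15222, not used here, so reads from Bmp4 and that antisense gene cannot be told apart.

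Upstream sequence is shown for a ligand that changed (Bmp4), an antagonist that was not called (Grem1) and a target that changed (Id2), from RefSeq on GRCm38.p6, 5′ to 3′ on the strand of the gene. RefSeq windows were matched for 4 of the 9 genes (these 3 and Id3). Capitals mark GGCGCC, the GC-rich letters of BMP-responsive Smad elements, and CAGAC, the short Smad box, on either strand. The windows are chr14:46390670-46390919 for Bmp4 and chr2:113758649-113758898 for Grem1, both 250 bases ending at the start site. For Id2 the stretch is chr12:25096254-25096342, the far 89 bases of its window, which lie outside every annotated untranslated exon. In GENCODE M21 this stretch lies inside the Id2 gene (25093799 to 25097140, reverse strand). It is thus upstream of the RefSeq start used but not of the start of the gene.
Bmp4: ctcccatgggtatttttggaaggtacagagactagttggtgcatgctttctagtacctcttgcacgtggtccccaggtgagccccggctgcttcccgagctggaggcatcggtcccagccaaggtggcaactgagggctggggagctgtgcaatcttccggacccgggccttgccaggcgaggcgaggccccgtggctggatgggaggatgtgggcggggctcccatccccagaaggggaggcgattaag
Grem1: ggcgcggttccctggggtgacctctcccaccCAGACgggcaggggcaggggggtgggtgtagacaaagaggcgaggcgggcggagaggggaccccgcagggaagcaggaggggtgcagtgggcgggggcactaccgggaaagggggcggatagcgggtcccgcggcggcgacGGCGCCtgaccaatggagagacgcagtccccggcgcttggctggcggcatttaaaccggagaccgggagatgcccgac
Id2: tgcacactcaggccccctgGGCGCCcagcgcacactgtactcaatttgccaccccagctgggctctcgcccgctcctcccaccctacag
Within 250 bases upstream, GGCGCC occurred once in Grem1, once in Id2 and in 9.59% of 32851 RefSeq windows of that length. Its first base in Id2 is 231 bases before the RefSeq start used, within the gene. CAGAC occurred once in Grem1 and at 2 places in Id3, 167 and 68 bases before its RefSeq start, and in 42.2% of windows. Neither motif was found in the Bmp4 window. The TCF letters CTTTGAT or CTTTGAA, searched on both strands, were in none of these 4 windows and in 7.48% of all. A match is a description of the letters and not of binding.

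Levels are RPKM, reads per kilobase of gene scaled to the mapped reads of the library, so genes can be compared by level. In DM-aKG libraries Id2, Id3 and Id1 had the highest means of the 9 (34.0, 30.4 and 29.2 RPKM), in the order Id1, Id3 and Id2 in control libraries (72.0, 66.7 and 51.9 RPKM) and in WT libraries (67.5, 51.3 and 31.9 RPKM). Differences among the 3 Id means in DM-aKG libraries were smaller than the SD of any of them. Grem1 and then Bmp2 came next after the Id genes in each group, and Bambi was lowest throughout. Log2 changes below are differences of log2(RPKM + 1), which understate changes of low genes, and a gene was called where limma gave p below 0.05 after Benjamini-Hochberg adjustment over 12433 genes with at least 1 RPKM in 6 or more libraries. All 9 genes passed that filter. Bambi did so with 11 libraries at 1 RPKM or more, 6 of them control libraries, which alone met it. A difference from control was thus built into its passing.

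**Figure D1:**
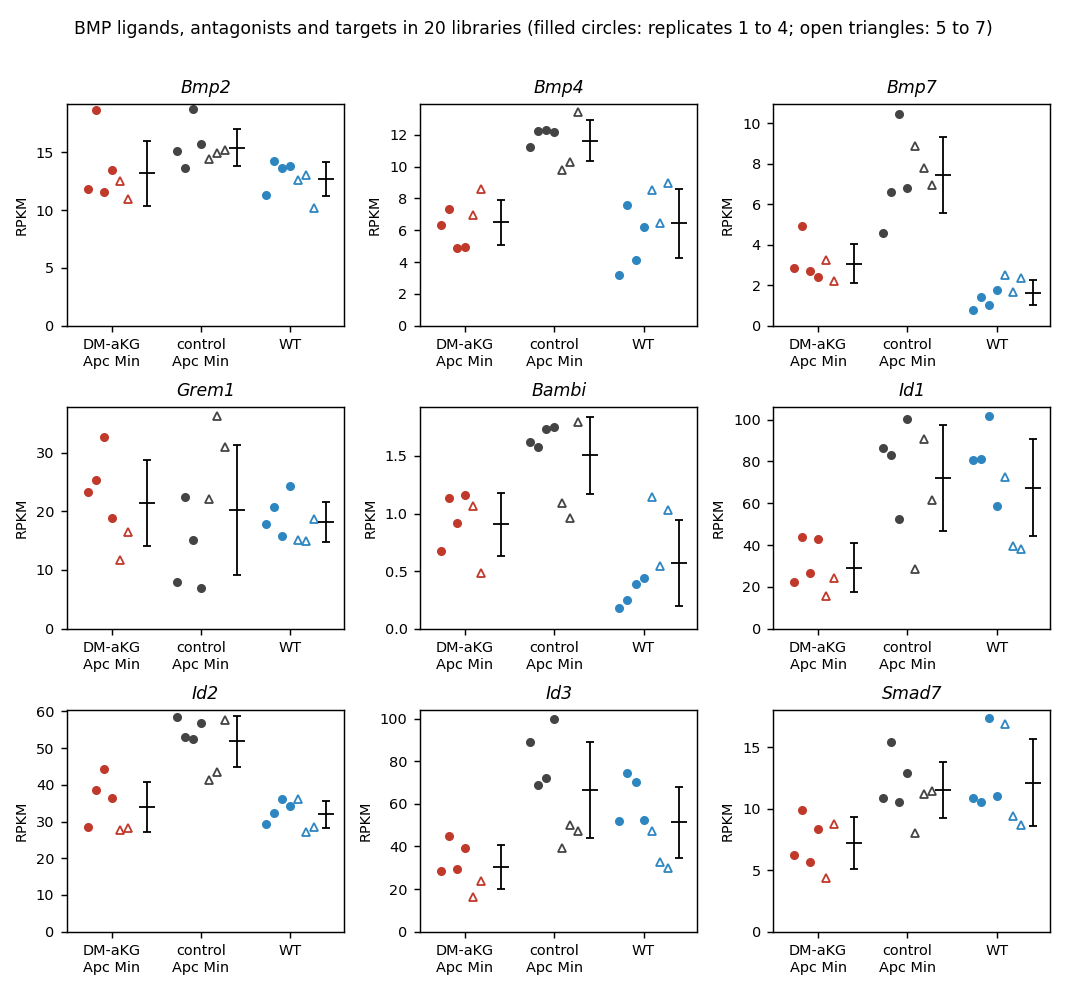
RPKM of each gene (linear vertical axis from 0) in every library, with DM-aKG Apc Min, control Apc Min and WT from left to right. Filled circles are replicates 1 to 4, open triangles replicates 5 to 7, and bars beside the points are means ± SD (n = 6, 7 and 7). Bmp4, Bmp7 and Id2 stand highest in control libraries, while Id1, Id3 and Smad7 are lowest with DM-aKG.

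DM-aKG was set against control treatment within the Apc Min genotype to ask what it did to the pathway. Of the 9 genes 7 fell and none rose: Bmp4, Bmp7, Bambi, Id1, Id2, Id3 and Smad7. Bambi counts here with the limit that it passed the filter through the control libraries. Among all genes tested 27.6% fell and 5.91% rose, and the median log2 change was -0.63 over the 9 genes and -0.14 over all. After median-of-ratios scaling, which brought the median of all genes to 0.02, 5 of the 9 fell, with 1718 genes lower and 1532 higher in all in place of 3432 and 735. Bmp2 and Grem1 were not called.

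Among the ligands, Bmp4 had its lowest, median and highest values at 4.87, 6.62 and 8.60 RPKM in DM-aKG libraries and at 9.77, 12.2 and 13.4 RPKM in control libraries. Every DM-aKG library lay below every control library, which was so for 8.19% of genes tested. The mean was 6.49 ± 1.44 RPKM with DM-aKG (SD, n = 6) and 11.6 ± 1.27 RPKM in control (n = 7), a log2 change of -0.77 (SE 0.17, limma adjusted p = 0.0019). Bmp7, a ligand best known from kidney and bone, lay at 2.22, 2.78 and 4.92 RPKM (lowest, median, highest) with DM-aKG and at 4.56, 6.93 and 10.5 RPKM in control. Only DM-aKG replicate 2 reached the control range, and that range was reached at control replicate 1. The log2 change of Bmp7 was -1.05 (SE 0.18, limma adjusted p = 0.000134). Bmp2, the ligand of differentiated epithelium, lay at 11.0, 12.2 and 18.7 RPKM with DM-aKG and at 13.7, 15.1 and 18.7 RPKM in control. Of 6 DM-aKG libraries 5 were below every control library, and replicate 2 was near the top of them. Its log2 change of -0.22 did not pass (SE 0.11, limma adjusted p = 0.110), but without DM-aKG replicate 2 Bmp2 was called lower at -0.32 (limma adjusted p = 0.00812).

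Among the Id targets, Id1 and Id3 had larger log2 changes than the other 7 genes, and Id2 a smaller one. Id1 had its lowest, median and highest values at 15.6, 25.3 and 44.0 RPKM with DM-aKG and at 28.8, 83.1 and 100.5 RPKM in control. The control libraries spread widely, and replicate 5 alone lay inside the DM-aKG range. The mean was 29.2 ± 11.6 RPKM with DM-aKG (n = 6) and 72.0 ± 25.3 RPKM in control (n = 7), a log2 change of -1.26 (SE 0.29, limma adjusted p = 0.00259). Id3 lay at 16.2, 29.0 and 44.9 RPKM with DM-aKG and at 39.3, 69.1 and 99.8 RPKM in control, with 5 of 6 DM-aKG libraries below every control library. Its log2 change was -1.11 (SE 0.26, limma adjusted p = 0.00235). Id2, which also has inputs outside the BMP pathway, lay at 27.8, 32.4 and 44.3 RPKM with DM-aKG and at 41.3, 52.9 and 58.6 RPKM in control, with replicate 3 alone inside the control range. Its log2 change was -0.61 (SE 0.12, limma adjusted p = 0.000621).

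Of the 3 inhibitors, Smad7 and Bambi fell and Grem1 was not called. Smad7 (chromosome 18, 75367529 to 75395935, forward strand), induced by BMP and TGF-beta signals, lay at 4.34, 7.30 and 9.92 RPKM with DM-aKG and at 8.06, 11.2 and 15.5 RPKM in control. The groups overlapped, with 3 of 6 DM-aKG libraries below every control library. The log2 change was -0.63 (SE 0.18, limma adjusted p = 0.0107), and it was not called after median-of-ratios scaling (-0.45, limma adjusted p = 0.0676) or quantile normalization (-0.45, 0.0582). Bambi (chromosome 18, 3507923 to 3516404, forward strand), a receptor-like protein without a kinase domain and a known Wnt target, averaged 0.907 ± 0.276 RPKM with DM-aKG and 1.505 ± 0.336 RPKM in control. Its log2 change of -0.39 (SE 0.14, limma adjusted p = 0.0357) lost its call without any one of 8 libraries (DM-aKG replicates 1, 3 and 6 and control replicates 1, 2, 3, 4 and 7; adjusted p 0.0505 to 0.0931) and after median-of-ratios scaling (0.129). A processed pseudogene on chromosome 2, Bambi-ps1, was listed at 9.86 ± 6.57 RPKM with DM-aKG and 8.004 ± 4.15 RPKM in control, and how reads were divided between the copies is not given in the sources used here. Grem1, a secreted antagonist that binds BMP2 and BMP4, lay at 11.8, 21.1 and 32.6 RPKM with DM-aKG and at 6.95, 22.1 and 36.3 RPKM in control, with full overlap (log2 change 0.21, SE 0.31, limma adjusted p = 0.625).

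**Figure D2:**
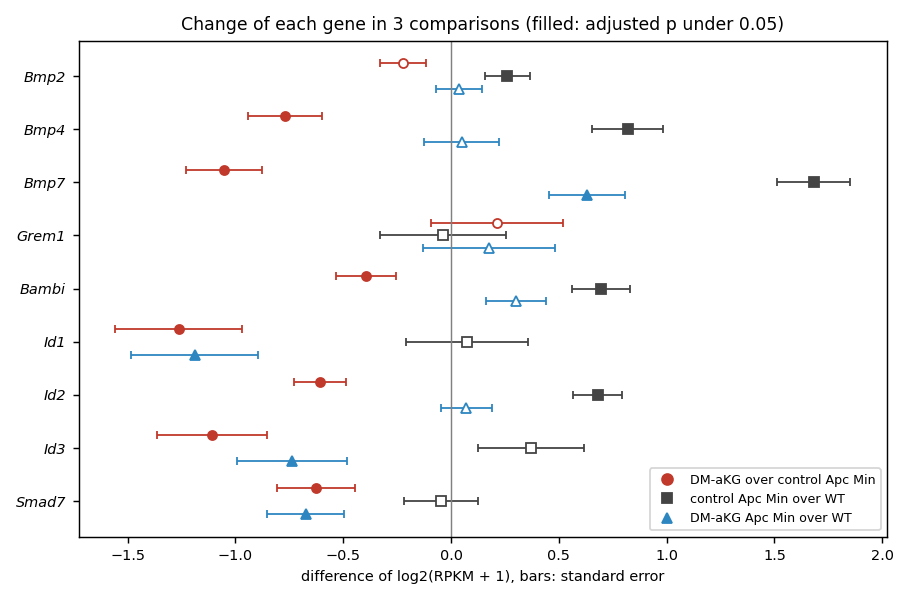
Log2 change of each gene (horizontal axis, difference of log2(RPKM + 1), bars are standard errors) for DM-aKG over control, control Apc Min over WT and DM-aKG Apc Min over WT, with filled symbols where the limma adjusted p was under 0.05. Bmp4, Bmp7, Bambi and Id2 are right of 0 for control over WT and left of 0 for DM-aKG over control, whereas Id1, Id3 and Smad7 are left of 0 in both comparisons with DM-aKG.

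Control Apc Min libraries were set against WT libraries for the difference between genotypes. The WT titles name no treatment, so genotype and control treatment cannot be told apart here. Of the 9 genes 5 were higher in control Apc Min libraries (Bmp2, Bmp4, Bmp7, Bambi and Id2) and none lower, while 43.2% of all genes tested were higher and 15.7% lower. Bambi is again counted with the limit that it passed the filter through the control libraries. The median log2 change was 0.37 over the 9 and 0.20 over all genes. Median-of-ratios scaling left 4 of the 9 higher, with 3277 genes higher and 3420 lower in all in place of 5368 and 1948.

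Bmp7 differed most: its lowest, median and highest values were 4.56, 6.93 and 10.5 RPKM in control Apc Min and 0.768, 1.65 and 2.48 RPKM in WT libraries. The groups did not overlap, and the log2 change was 1.68 (SE 0.17, limma adjusted p = 9.6e-08). Bmp4 at 9.77 to 13.4 RPKM in control Apc Min was also above its whole range in WT, 3.20 to 8.95 RPKM (log2 change 0.82, SE 0.17, limma adjusted p = 0.000311). Id2 was the third gene without overlap, at 41.3 to 58.6 RPKM in control Apc Min and 27.1 to 36.2 RPKM in WT (0.68, SE 0.12, limma adjusted p = 5.11e-05). Such separation upward was found for 3 of the 9 genes and for 20.4% of all genes tested. Bambi averaged 1.505 ± 0.336 RPKM in control Apc Min and 0.569 ± 0.374 RPKM in WT (0.70, SE 0.14, limma adjusted p = 0.000208). Bmp2 averaged 15.4 ± 1.61 RPKM in control Apc Min and 12.7 ± 1.47 RPKM in WT. Its log2 change of 0.26 (SE 0.10, limma adjusted p = 0.0337) was near the middle of all genes, went to 0.03 after median-of-ratios scaling (0.8293), and was not called without control replicate 3 (0.0804), WT replicate 1 (0.0672) or WT replicate 7 (0.0794).

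Id1 and Smad7 were not called in this comparison, and Id3 was called or not with the terms of the fit. Id1 averaged 72.0 ± 25.3 RPKM in control Apc Min and 67.5 ± 23.4 RPKM in WT (log2 change 0.07, SE 0.28, limma adjusted p = 0.839). Id3 averaged 66.7 ± 22.5 RPKM in control Apc Min and 51.3 ± 16.9 RPKM in WT (0.37, SE 0.25, limma adjusted p = 0.201). With replicates 1 to 4 and 5 to 7 as a factor, Id3 was called higher in control Apc Min (0.37, limma adjusted p = 0.0244). Smad7 averaged 11.5 ± 2.27 RPKM in control Apc Min and 12.1 ± 3.52 RPKM in WT (-0.05, SE 0.17, limma adjusted p = 0.826). Beside higher Bmp4 and Bmp7 mRNA in control Apc Min libraries, and Bmp2 with the limits given above, Id1 and Smad7 differed by less than their SD. Id2 was higher without overlap. Of 5 other ligands tested 2 were called higher and 1, Bmp8a, lower. Of 4 other pathway targets tested 3 were called higher and 1 lower (43.2% and 15.7% of all genes tested). Msx1, among the 3, passed the filter through the control libraries. A missed threshold does not show that Id1 and Smad7 levels are equal in the 2 groups. Grem1 averaged 20.2 ± 11.1 RPKM in control Apc Min and 18.2 ± 3.44 RPKM in WT and was not called (limma adjusted p = 0.921).

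DM-aKG Apc Min against WT libraries placed the treated level. This comparison shares its libraries with the other two, so the values are set side by side and no overlap between comparisons is read as support. Of the 9 genes 3 were lower than in WT (Id1, Id3 and Smad7) and 1 was higher (Bmp7), where 17.3% of all genes tested were lower and 21.9% higher. Id1 lay at 15.6, 25.3 and 44.0 RPKM (lowest, median, highest) with DM-aKG and at 38.1, 72.5 and 101.6 RPKM in WT, with 4 of 6 DM-aKG libraries below every WT library. The log2 change was -1.19 (SE 0.29, limma adjusted p = 0.00387). Id3 lay at 16.2, 29.0 and 44.9 RPKM with DM-aKG and at 29.8, 51.8 and 74.4 RPKM in WT (-0.74, SE 0.26, limma adjusted p = 0.0275). The Id3 call was lost without DM-aKG replicate 5 (0.0837), WT replicate 2 (0.0603) or WT replicate 3 (0.0600). Smad7 lay at 4.34, 7.30 and 9.92 RPKM with DM-aKG and at 8.68, 10.9 and 17.4 RPKM in WT (-0.67, SE 0.18, limma adjusted p = 0.00637). Thus 3 of the 9 genes were called lower with DM-aKG than in each other group, and so were 4.95% of all genes tested.

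Of the other genes, Bmp4 averaged 6.49 ± 1.44 RPKM with DM-aKG and 6.43 ± 2.16 RPKM in WT (log2 change 0.05, SE 0.17, limma adjusted p = 0.844). Id2 averaged 34.0 ± 6.85 RPKM with DM-aKG and 31.9 ± 3.73 RPKM in WT (0.07, SE 0.12, limma adjusted p = 0.658). Bmp2 averaged 13.2 ± 2.82 RPKM with DM-aKG and 12.7 ± 1.47 RPKM in WT (limma adjusted p = 0.803). Bmp7 averaged 3.06 ± 0.979 RPKM with DM-aKG and 1.64 ± 0.634 RPKM in WT, and it was the one gene called higher (0.63, SE 0.18, limma adjusted p = 0.00887). Bambi averaged 0.907 ± 0.276 RPKM with DM-aKG and 0.569 ± 0.374 RPKM in WT (0.30, limma adjusted p = 0.0929). That difference was called without DM-aKG replicate 6 (0.0437), WT replicate 5 (0.0316) or WT replicate 7 (0.0434).

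Replicates 1 to 4 and 5 to 7 differ in the nuclear ribosomal transcript Rn45s (3836 to 6558 RPKM in 12 libraries and 1078 to 3621 RPKM in 8), and the labels do not say what the numbers mark. Each set holds all 3 groups. Id3 was lower in the second set within every group. With DM-aKG it averaged 35.5 RPKM in replicates 1 to 4 (n = 4) and 20.1 RPKM in replicates 5 to 7 (n = 2), in control 82.5 (n = 4) and 45.5 RPKM (n = 3), and in WT 62.2 (n = 4) and 36.7 RPKM (n = 3). The change with DM-aKG was alike within both sets, at -1.20 and -1.16 (limma adjusted p = 0.00111 and 0.0128). Id1 changed by -1.25 in replicates 1 to 4 (limma adjusted p = 0.00605) and by -1.44 in replicates 5 to 7 (0.062), where 2 DM-aKG libraries stand against 3 control libraries. Within replicates 1 to 4 all 7 genes called over all libraries were called lower with DM-aKG, as were 1821 of the 12433 genes tested. Within replicates 5 to 7 Bmp7, Id2, Id3 and Grem1 were called lower, as were 2785 of the 12433 genes tested. Smad7 (-0.62, limma adjusted p = 0.210), Bmp4 (-0.47, 0.104) and Bambi (-0.37, 0.271) were, like Id1, not called there.

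Grem1 moved in opposite directions in the sets. In replicates 1 to 4 it was 18.9 to 32.6 RPKM with DM-aKG and 6.95 to 22.4 RPKM in control, a log2 change of 1.001 (limma adjusted p = 0.0385). In replicates 5 to 7 it was 11.8 and 16.6 RPKM with DM-aKG and 22.1 to 36.3 RPKM in control, a log2 change of -1.01 (limma adjusted p = 0.0186). The control libraries held the wide spread, with WT libraries at 15.8 to 24.3 RPKM in the first set and 14.9 to 18.7 RPKM in the second. The difference between the sets was -2.01 on the log2 scale (limma interaction, unadjusted p = 0.000353) and did not pass over all genes (limma interaction, adjusted p = 0.125), where 26 genes did. For the other 8 genes the same interaction had an adjusted p of 0.535 to 0.969.

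**Figure D3:**
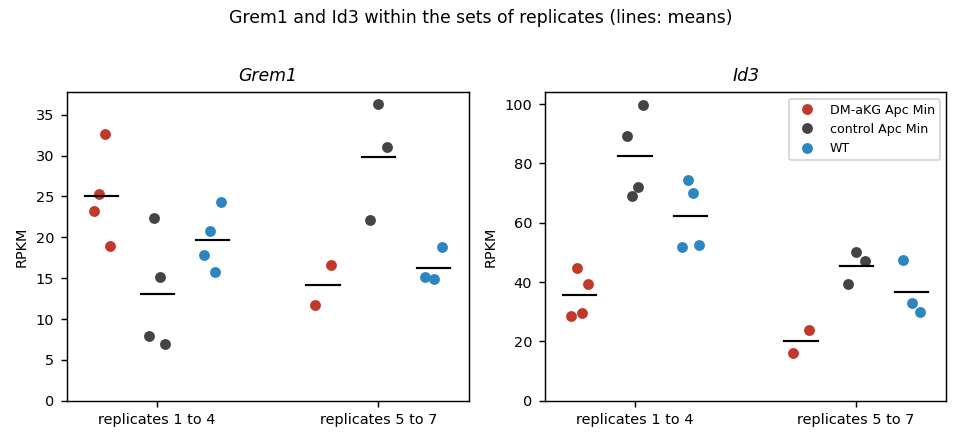
RPKM (linear axis from 0) of Grem1 and Id3 in replicates 1 to 4 and in replicates 5 to 7, with DM-aKG Apc Min, control Apc Min and WT from left to right in each set; points are libraries and lines are means. Grem1 with DM-aKG lies mostly above control in the first set and below it in the second, while Id3 is lowest with DM-aKG in both.

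Several members are made by particular cells, and markers of those cells moved with the groups. In bulk samples fewer cells of a type and less RNA per cell cannot be told apart. Markers of epithelium, smooth muscle, fibroblasts and telocytes, endothelium, leukocytes, glia and neurons, and pericytes were present in every group, and no marker was at 0 in all libraries. All 10 smooth muscle markers rose with DM-aKG over control, with summed levels of 767 to 1386 RPKM with DM-aKG, 353 to 1237 RPKM in control and 895 to 1548 RPKM in WT. Of 11 fibroblast and telocyte markers tested 6 fell and 1 rose, with sums of 196 to 319 RPKM with DM-aKG, 355 to 476 RPKM in control and 172 to 261 RPKM in WT, highest in control as was Bmp4. Of 8 epithelial markers 5 fell and 1 rose (2666 to 3934 RPKM with DM-aKG, 3796 to 5626 RPKM in control and 5220 to 7096 RPKM in WT). Over all genes tested 27.6% fell and 5.91% rose. With the mean of the smooth muscle markers as a covariate, 4 of the 9 genes were still lower with DM-aKG (Bmp7, Id1, Id2 and Id3), and Bmp4 (-0.51, limma adjusted p = 0.109), Smad7 (-0.57, 0.109) and Bambi (-0.23, 0.402) were not called. Among all 12433 genes tested 2223 were lower in that fit, in place of 3432. All 10 markers differed between these groups, so the fit cannot fully part the covariate from the group. Smooth muscle sums were 925 to 1386 RPKM with DM-aKG and 398 to 828.9 RPKM in control in replicates 1 to 4, and 767 to 1135 RPKM with DM-aKG and 353 to 1237 RPKM in control in replicates 5 to 7. In control Apc Min over WT all 10 smooth muscle markers and all 9 leukocyte markers tested were lower, and 8 of 11 fibroblast and telocyte markers were higher and 1 lower. There 4 of 8 epithelial markers were lower and 1 higher, and 4 of 8 endothelial markers were higher, where 43.2% of all genes tested were higher and 15.7% lower. With DM-aKG over WT 5 of 8 epithelial and 8 of 9 leukocyte markers were lower, 7 of 8 endothelial markers were higher, 4 of 11 fibroblast and telocyte markers were higher and 1 lower, and none of 10 smooth muscle markers was called. Of all genes tested 21.9% were higher and 17.3% lower with DM-aKG over WT. With the same covariate 2 of the 9 genes were still higher in control Apc Min over WT (Bmp7 and Id2). Among all 12433 genes tested 2843 were higher, in place of 5368. In that fit Bmp4 (0.50, limma adjusted p = 0.120), Bambi (0.50, 0.0679) and Bmp2 (0.15, 0.496) were not called. Within replicates 5 to 7 alone, Bmp4 (0.44, limma adjusted p = 0.0704) and Bambi (0.26, 0.341) were not called higher in control Apc Min. None of the 9 was called between DM-aKG and WT in that set of 2 and 3 libraries. Of the 12433 genes tested 198 were called higher there and 349 lower. The log2 changes in that set were -1.26 for Id1 (limma adjusted p = 0.146), -0.83 for Id3 (0.0803) and -0.75 for Smad7 (0.194), against -1.19, -0.74 and -0.67 over all libraries. The part of fibroblast, epithelial, endothelial and leukocyte content in these results was not tested.

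Beyond the 9 genes, 47 genes of the pathway were listed by name, of which 37 passed the filter. Fst, Chrdl2, Bmper and Msx1 did so through the control libraries, so a difference from control was built into their passing. They are counted below among the genes lower with DM-aKG than in control and higher in control Apc Min than in WT. With DM-aKG over control 11 fell and 2 rose (median log2 change -0.10, against -0.14 over all genes, of which 27.6% fell and 5.91% rose), and in control Apc Min over WT 20 were higher and 5 lower (median 0.36, against 0.20 over all genes, of which 43.2% were higher and 15.7% lower). With DM-aKG over WT 9 were higher and 3 lower (median 0.24, against 0.05 over all genes, of which 21.9% were higher and 17.3% lower). After median-of-ratios scaling the counts were 10 lower and 7 higher for DM-aKG over control, and 13 higher and 7 lower for control Apc Min over WT. Of 5 ligands tested 2 fell with DM-aKG: Bmp6 averaged 1.47 ± 0.169 RPKM with DM-aKG and 3.13 ± 0.548 RPKM in control (log2 change -0.73, limma adjusted p = 8.36e-06), and Bmp8b 0.844 ± 0.559 and 3.51 ± 1.18 RPKM in the same order (-1.29, limma adjusted p = 3.32e-05). Bmp8a was instead lower in control Apc Min than in WT (0.932 ± 0.195 and 2.89 ± 0.524 RPKM, -1.01, limma adjusted p = 7.76e-06).

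Of 10 receptors and co-receptors tested 1 fell with DM-aKG, Acvr1, a type I receptor, at 5.23 ± 0.663 RPKM with DM-aKG and 8.57 ± 1.03 RPKM in control (limma adjusted p = 2.27e-05), and 1 rose, the co-receptor Rgma (log2 change 0.75, limma adjusted p = 0.000345). Bmpr1a, the main type I receptor of the gut epithelium, averaged 20.1 ± 1.36 RPKM with DM-aKG, 19.9 ± 3.83 RPKM in control and 20.01 ± 1.60 RPKM in WT. Among Smads and their modifiers 2 of 9 fell, the ubiquitin ligase Smurf1 and Smad6, the inhibitory Smad most specific to the BMP branch. Over all genes tested 27.6% fell and 5.91% rose, beside which the receptor and Smad counts are to be read. Smad5 was not called with DM-aKG over control. It was higher than in WT both with DM-aKG (0.75, limma adjusted p = 0.000367) and in control (0.81, limma adjusted p = 3.2e-05). Smad6 averaged 3.21 ± 0.99 RPKM with DM-aKG, 5.30 ± 1.29 RPKM in control and 5.34 ± 1.35 RPKM in WT. It was lower with DM-aKG than in control (-0.59, limma adjusted p = 0.0109) and than in WT (-0.60, limma adjusted p = 0.00879), and control and WT were not called different (0.947).

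Of 9 secreted antagonists tested 5 fell and 1 rose with DM-aKG over control (27.6% and 5.91% of all genes), and 7 were higher and 1 lower in control Apc Min over WT (43.2% and 15.7% of all genes). Fst, Chrdl2, Bmper and the target Msx1 passed the filter through the control libraries, with 11, 10, 7 and 8 libraries at 1 RPKM or more, of which 7, 7, 6 and 7 were control, so a difference from control was built into their choice. Fstl1, a follistatin-like protein of mesenchyme, averaged 11.5 ± 3.28 RPKM with DM-aKG, 22.8 ± 2.47 RPKM in control and 9.09 ± 1.01 RPKM in WT. Fst, follistatin, which binds activins and some BMPs, averaged 2.29 ± 1.96 RPKM with DM-aKG, 4.98 ± 1.13 RPKM in control and 0.375 ± 0.115 RPKM in WT. Twsg1, Chrdl2 and Bmper were the others that fell (log2 changes -0.72, -0.63 and -0.61). Among 4 other targets tested 1 was called lower, the homeobox gene Msx1, at 0.916 ± 0.556 RPKM with DM-aKG, 6.76 ± 4.14 RPKM in control and 0.428 ± 0.143 RPKM in WT (log2 change -1.83, limma adjusted p = 0.000108). Id4, the Id gene outside the 9, averaged 4.38 ± 0.732 RPKM with DM-aKG and 3.74 ± 1.47 RPKM in control and was not called (limma adjusted p = 0.302).

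**Figure D4:**
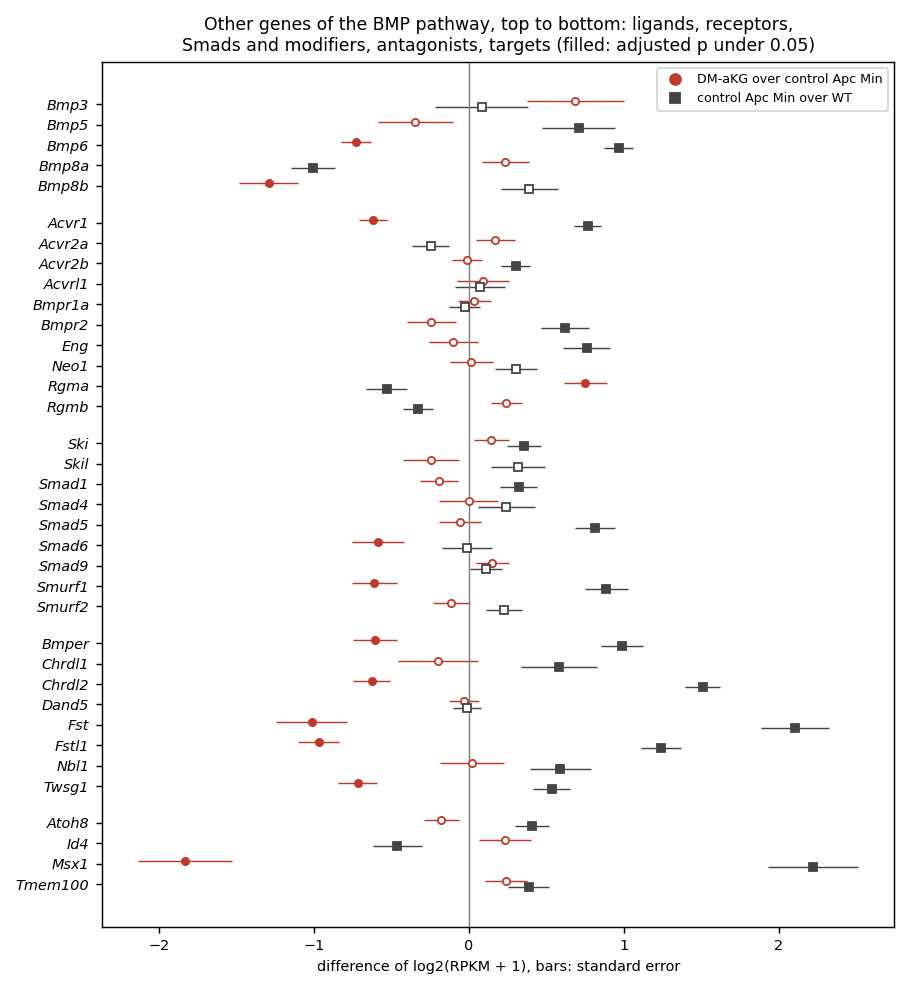
Log2 change (horizontal axis, difference of log2(RPKM + 1), bars are standard errors) of 36 of the 37 other pathway genes tested, grouped by role from ligands at the top to targets at the bottom, with one symbol for the treatment and one for control Apc Min over WT, filled symbols where the limma adjusted p was under 0.05. Msx1, Fst and Fstl1 lie far right for control over WT and left for DM-aKG over control, while Smad6 is near 0 for control over WT. Msx1 and Fst passed the filter through the control libraries.

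The genes most like each member over the 20 libraries, by Pearson's r of log2(RPKM + 1) with no test, differed between members. The libraries share groups and sets, so r is a description. Id1 was most like Id3 (r = 0.898), and Smad7 had Id1 as its second (0.874) after G6pdx (0.885). Id3 was nearest to Psmb5, Cyba and Ap1s1 (0.941, 0.937 and 0.933). Bmp7 had the closest neighbours of the 9, namely Ncoa5, Gtf2ird1 and Rnf43 (0.983, 0.979 and 0.979). Id2 was nearest to Ephb6, Dpysl3 and Wdr6 (0.930, 0.930 and 0.929), and Bmp4 to Npnt, Glp2r and Tmem176a (0.921, 0.881 and 0.879). Grem1 had the most distant first neighbour, Itga1 (0.800), and Bmp2 the next, Ppp2r1a (0.869). Bambi was nearest to Npm1 (0.892).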

How the data were processed

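The authors deposited a table of 24795 genes by 20 libraries, read here as RPKM, a unit inferred from the values: they are not whole, they sum to 277634 to 369409 per library, and the value of 1 read changes from gene to gene. The submitters' processing notes name mm10, HISAT2 2.0.4, CASAVA 1.8 and Partek. The role of each, the annotation and any strand setting are not stated in those notes. Depth was estimated from the step in genes with 1 annotated transcript as 21.3 to 29.4 M reads per library. Only 66.3 to 72.3% of values up to 8 reads fell within 0.1 read of a whole number (20% if spread evenly), so counts were not recovered and no count test was run. No pair of libraries was identical.

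Groups and replicate numbers came from the titles. Genes with at least 1 RPKM in 6 or more libraries (12433) were fitted as log2(RPKM + 1) over all 20 libraries with limma 3.58.1 (trend and robust, statmod 1.5.0, R 4.3.3), 2-sided, with Benjamini-Hochberg adjustment. On simulated data of 12433 genes, 67, 67 and 66 changes of 0.5, 1 and 2 on the log2 scale were planted for DM-aKG over control. They were up and down in equal share, only in genes with mean log2(RPKM + 1) of at least 2. Of these 55.2, 94 and 98.5% were recovered with 6 false calls in 171. Lower genes such as Bambi are not covered. The noise was independent between genes and libraries, without replicate sets. In the data 3432 genes fell and 735 rose, so the false calls are those of the simulated setting. The same design gave 6 false calls in 167 for control Apc Min over WT and 14 in 173 for DM-aKG over WT. Python 3.11.15, pandas 2.3.3, numpy 2.4.6 and matplotlib 3.10.9 were used otherwise. Up to 8 pathway genes with the smallest p per comparison, all members and the 3 genes of highest r per member were eligible to be named. Smad6, Smurf1, Bmpr1a, Id4, Nog and Msx2 fall outside that rule and were picked with their values known. 1 list gene is counted but not reported by name here. The members and lists were chosen with earlier results of these data known. Alternatives varied the pseudocount, filter, scaling, weights, terms and libraries.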

Additional observations from a re-analysis of the deposited data

Results flagged for a closer look

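Bmp2 in DM-aKG replicate 2 was 18.7 RPKM, apart from the other 5 DM-aKG libraries at 11.0 to 13.5 RPKM: its gap to the nearest was 0.672 of the range of the group, above Dixon's 95% critical value of 0.625. Bmp2 in control replicate 3 was 18.7 RPKM, apart from the other 6 control libraries at 13.7 to 15.7 RPKM (0.596, critical value 0.568). Over 27 pairs of gene and group looked at, chance flags about 1 in 20. Grem1 changed with DM-aKG over control by 2.01 less on the log2 scale in replicates 5 to 7 than in replicates 1 to 4 (-2.01, limma interaction, adjusted p = 0.125), with opposite signs in the sets.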

How the results depend on the processing

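Of the log2 changes of the 9 genes in 3 comparisons under 32 alternatives, 812 stayed on the same side of the threshold, 41 lost a call, 9 gained one and 2 reversed: Grem1 in replicates 5 to 7 alone, at -1.01 with DM-aKG over control, and at 0.81 in control Apc Min over WT. Of the 812, 32 changed sign, in 9 of the gene and comparison pairs, none of them called either way. Bmp7, Id2 and Id3 kept the call for DM-aKG over control in all 32, as did Bmp7 and Id2 for control Apc Min over WT. The cause of the other changes was not tested. Counts follow as DM-aKG over control, then control Apc Min over WT, then DM-aKG over WT, and sets hold fewer libraries.

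Median-of-ratios scaling gave 7 list genes higher and 1532 higher and 1718 lower genes in all, then 13 list genes higher and 3277 higher and 3420 lower in all. Quantile normalization gave 8, 1750 and 1849, then 13, 3239 and 3348. With no filter 4 list genes were higher with DM-aKG than in control. Replicates 1 to 4 alone gave 1 member and 5 list genes higher and 404 higher and 1821 lower in all, and 2 members higher for DM-aKG over WT. Replicates 5 to 7 alone gave 4 members lower, 0 list genes higher and 381 genes higher, then 3 members higher, 1 list gene lower and 1141 genes lower, then 0 members higher, 0 lower, 1 list gene higher, 0 lower, and 198 higher and 349 lower in all. The smooth muscle covariate gave 4 members lower, 1 list gene higher, 200 genes higher and 2223 lower, then 2 members and 10 list genes higher, 2 list genes lower, and 2843 higher and 563 lower in all. For DM-aKG over WT, fitting only the 2 groups gave 16 list genes higher, and array weights 15 higher and 5 lower.

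Without one library at a time, members lower with DM-aKG than in control numbered 6 to 8, members higher in control Apc Min than in WT 4 to 5, and for DM-aKG over WT 1 to 2 were higher and 2 to 3 lower. Same-numbered libraries did not meet the rule for pairing, a correlation of deviations over 0.1 in every pair (4 of 6 pairs over 0.1 for DM-aKG over control, 3 of 7 for control Apc Min over WT and 1 of 6 for DM-aKG over WT; 1, 1 and 0 libraries correlated best with their own number). With a replicate block 6 members were lower with DM-aKG than in control (Bambi was not called, limma adjusted p = 0.0609), 6 were higher in control Apc Min than in WT (Id3 was added, 0.0400), and 1 was higher and 3 lower for DM-aKG over WT. Values under 1 RPKM, such as Bambi in WT, limit what log2(RPKM + 1) can show.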

Other observations

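Nog, the antagonist noggin, was under 1 RPKM in every library and was not tested. It averaged 0.662 ± 0.131 RPKM with DM-aKG, 0.329 ± 0.123 RPKM in control Apc Min and 0.677 ± 0.136 RPKM in WT (SD, n = 6, 7 and 7). Msx2, a target related to Msx1, was listed at 0 in every WT library and reached 0.0696 RPKM with DM-aKG and 0.455 RPKM in control.

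Set against its ligand within each library, Grem1 over Bmp4 had a lowest, median and highest ratio of 1.70, 3.58 and 6.70 with DM-aKG, 0.571, 1.83 and 3.52 in control and 1.78, 2.73 and 5.56 in WT. The order of DM-aKG and control reversed between the sets of replicates. In replicates 1 to 4 the ratio was 3.47 to 6.70 with DM-aKG and 0.571 to 1.83 in control. In replicates 5 to 7 it was 1.70 and 1.93 with DM-aKG and 2.26 to 3.52 in control. The summed level of Id1, Id2 and Id3 had a median of 89.7 RPKM with DM-aKG, 184.6 RPKM in control and 155.9 RPKM in WT. The summed level of Bmp2, Bmp4 and Bmp7 had medians of 21.4, 33.1 and 21.5 RPKM in the same order. These are descriptions without a test.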
